A study of Mus musculus with 40 samples.

Results

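Libraries labelled as lacking the 3 CREB family factors together were examined in mpkCCD cells, an immortalized line of mouse kidney collecting duct, by comparing the 3 RNA sequencing libraries labelled ATF1/CREB1/CREM-KO with 3 libraries of unmodified (WT) control clones, numbered 9 to 11. These 6 libraries were taken by their genotype labels and consecutive library numbers, from 40 samples in the series and 22 with columns in the deposited table. All 6 groups of that table were grown on permeable supports, for 4 days in complete medium and then 3 days in a simple medium with 50 nM dexamethasone, a synthetic glucocorticoid, and received 0.1 nM dDAVP, an analogue of vasopressin, for 72 hours. No library without dDAVP was used, so every value below is a level under vasopressin stimulation and dexamethasone. The other groups were 3 libraries labelled ATF1/CREB1-KO with control clones 6 to 8, and 5 labelled ATF1-KO with control clones 1 to 5. The labels do not say which bases were edited, or whether the 3 labelled replicates are separate clones, so p-values measure the spread between these libraries, which may be technical. Of 55414 genes in the table, 13258 had a mean of at least 1 TPM (a transcript abundance corrected for transcript length and scaled to the same total in each library) over the 6 libraries and were tested. Read depth is not known from TPM.

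Principal cells of the collecting duct take up water through aquaporin-2, which vasopressin controls through its V2 receptor, the Gs protein, adenylyl cyclase, cAMP and protein kinase A. CREB1, ATF1 and CREM are closely related basic leucine zipper factors that are phosphorylated by protein kinase A and bind, as dimers, to the cAMP response element, whose full form is the palindrome TGACGTCA and whose shorter form is TGACG or CGTCA. The 3 factors bind the same element and can pair with each other. The series title names their part in Aqp2 transcription as its question.

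The libraries labelled ATF1/CREB1/CREM-KO did not form a uniform group. Across genes, which are not independent replicates, log2 values correlated at 0.970 to 0.975 between control clones, at 0.978 between labelled replicates 2 and 3, and at 0.948 between labelled replicate 1 and either of the others. Each labelled library correlated with the control clones at 0.939 to 0.951. Some chromosomes moved as a block in part of the libraries. Relative to the control mean, the median gene of chromosome 14 was at -0.06, -0.56 and -0.53 on the log2 scale in labelled replicates 1, 2 and 3, and that of chromosome 16 at -0.76, -0.05 and -0.02. For chromosome 18 the medians were 0.01, 0.42 and 0.44, and for chromosome 17 they were 0.25, 0.17 and 0.17. Replicates 2 and 3 thus shared shifts of chromosomes 14 and 18 that replicate 1 lacked, replicate 1 alone had low values on chromosomes 16, 11 (-0.29) and 15 (-0.30), and chromosome 17 was higher in all 3 libraries. Smaller shifts included chromosome 8 in replicate 1 (0.18, with each control clone minus the other 2 at -0.07 to 0.09). Chromosome 10 was at -0.11, -0.16 and -0.14 (control clones -0.05 to 0.02). The 3 control clones also differed among themselves on chromosome 3, where one clone minus the other two ran from -0.25 to 0.15. The part of these shifts in single genes was not tested, and of the genes named below several lie on these chromosomes. They are Gata4, 3830406C13Rik and Rpl15 on chromosome 14, Cldn8 on 16, Crem and Npc1 on 18, and Cldn6, Sult1c2, Epb41l3, Fkbp5, H2-T22, H2-T23 and Tap2 on 17. Chromosome 11 holds, among others, Fzd2, Glod4, Krt19, Mrpl55, Ramp3 and Wnt9b. Chromosome 15 holds, among others, Aqp2, Aqp5, Aqp6, Atf1, Bik, Krt8, Nr4a1 and Rapgef3. Among others, chromosome 8 holds Angpt2, Cdh1, Cdh16 and Col4a1, and chromosome 10 holds Cited2, Dusp6, Ggt1 and Tspyl4.

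**Figure D1:**
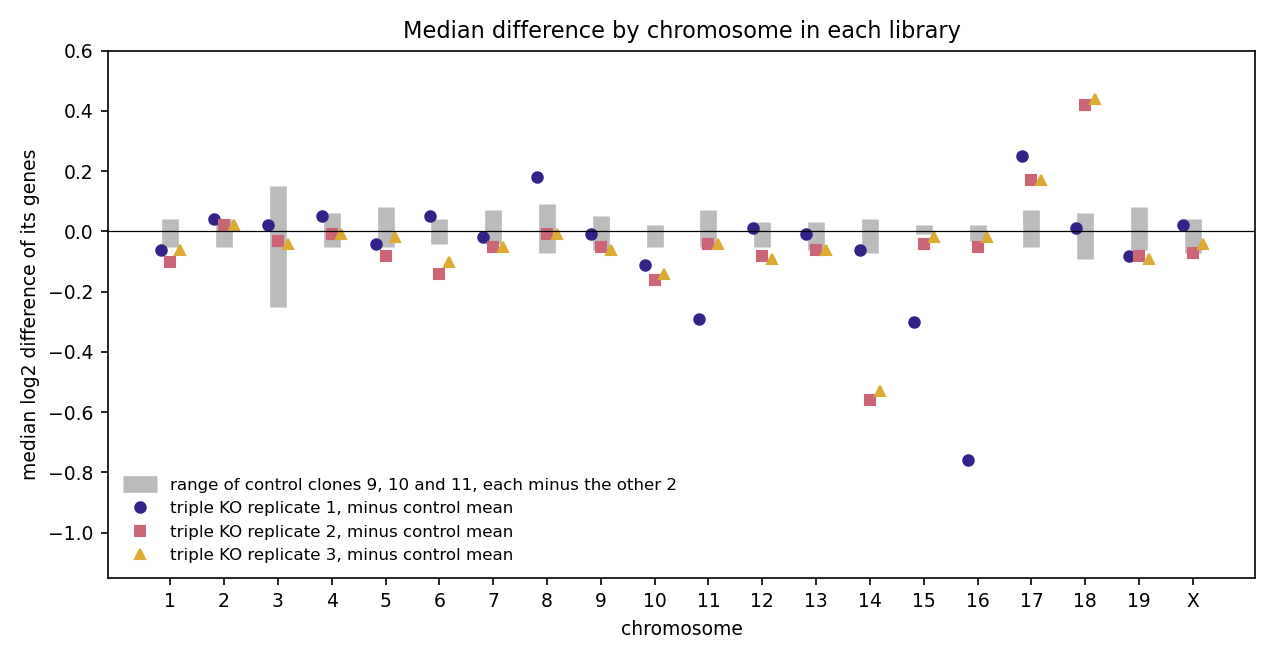
Median log2 difference of the tested genes of each chromosome (vertical axis, log2(TPM + 1); horizontal axis, chromosome) in the 3 libraries labelled ATF1/CREB1/CREM-KO, each minus the control mean, with grey bars for the range of each control clone minus the other 2. Chromosomes 14 and 18 stand apart in replicates 2 and 3, chromosome 16 (-0.76) in replicate 1, and chromosome 17 (0.17 to 0.25) in all 3.

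The targeted genes were checked first. Creb1 was at 39.03, 38.17 and 35.92 TPM in control clones 9, 10 and 11 and at 18.6, 18.18 and 19.35 TPM in labelled replicates 1, 2 and 3. The groups were far apart, with a ratio of means of 0.496, and the log2 change was -0.97 ± 0.09, adjusted p = 0.00305 (limma, Benjamini-Hochberg adjusted). Against all 11 control clones together the change of Creb1 was -0.14 (adjusted p = 0.922). Against control clones 1 to 5 and 9 to 11, without those of the ATF1/CREB1-KO group, it was -0.79 (adjusted p = 6.85e-04). Atf1 was at 39.94, 39.78 and 40.52 TPM in control clones 9, 10 and 11 and at 23.67, 40.81 and 32.68 TPM in labelled replicates 1, 2 and 3. Replicate 2 lay above every control clone, the groups overlapped, and the change did not pass (-0.33 ± 0.19, adjusted p = 0.304). Replicate 1, the lowest for Atf1 (-0.74 from the control mean), is also the library with a low median on Atf1's chromosome, 15. Crem was at 24.87, 19.98 and 23.13 TPM in control clones 9, 10 and 11 and at 26.02, 31.61 and 33.81 TPM in labelled replicates 1, 2 and 3, so all 3 labelled libraries lay above the control clones, although the change did not pass (0.41 ± 0.14, adjusted p = 0.116). By library, Crem differed from the control mean by 0.20, 0.47 and 0.56, beside medians of 0.01, 0.42 and 0.44 for its chromosome, 18. A level of RNA does not show whether the protein was lost, and the levels of Atf1 and Crem do not set the labelled libraries apart as knockouts of those genes. Exact two-sided permutation tests over the 20 ways to divide these libraries gave p = 0.100 for Creb1 and Crem, the smallest value that 3 against 3 allows, and p = 0.400 for Atf1.

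Aqp2, the water channel gene, had the largest fitted change of all named genes. It was at 1627.08, 640.62 and 2279.29 TPM in control clones 9, 10 and 11 and at 15.1, 16.05 and 15.31 TPM in labelled replicates 1, 2 and 3. The control clones themselves differed by up to 3.56 times, yet the lowest control clone was 39.9 times the highest labelled library, and the 3 labelled libraries lay within 1 TPM of each other. The ratio of group means was 97.9, and the log2 change was -6.34 ± 0.43, adjusted p = 8.60e-04. The change was called in each of the 6 fits that leave out 1 library, with adjusted p up to 0.0123, and the exact permutation p was 0.100.

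Of the 13258 genes, 1216 (9.17%) changed at an adjusted p under 0.05, 518 higher (3.91%) and 698 lower (5.26%), with a median over all tested genes of -0.05 on the log2 scale. The lower share of calls, 57.4%, fell to 46.9% after median-ratio scaling, which moved the median of all genes by 0.04. The labelled libraries all lay on one side of the control clones for 4591 genes (34.6%), so separation alone is common here. At least 2-fold changes were called for 425 genes (3.21%). At the large end the split was wider: 65 genes fell by at least 4 times (0.490%) and 29 rose by as much (0.219%). Many calls were lost when a library was left out. That also leaves fewer samples, so a lost call does not show that it rested on that library. Without control clone 9 there were 185 calls, without control clone 10 489, without control clone 11 280, without labelled replicate 2 343 and without replicate 3 406, whereas leaving out replicate 1 gave 3317. Only 172 genes (1.30%), 52 higher (0.392%) and 120 lower (0.905%), were called in all 6 of these fits, and they are named below as held in all 6 fits. For the other genes the highest adjusted p over the 6 fits is given as the leave-one-out p. The calls lost in this way were lost without control clone 9 and, for most, also without control clone 10 or 11 or labelled replicate 2 or 3. Exceptions are named. With run of library numbers as a covariate over 22 libraries, 26 of 100 named calls were lost, 2 of them genes held in all 6 fits (Cebpb and Ctsl). Against all 11 control clones 63 of 100 named calls were lost. Of genes held in all 6 fits, these included Bmf, Cdh1, Cebpb, Creb1, Ctsl, Glod4, Herpud1, Ndufb2, Nr4a1, Rmdn3, Sgk1, Tgfb3, Timm44, Tspan13 and Tspan15. Their adjusted p ran from 0.0698 to 0.922. Against control clones 1 to 5 and 9 to 11, which leave out those of the ATF1/CREB1-KO group, 9 of 100 were lost. Ctsl and Tspan13 were among these 9. Over all tested genes there were 137 calls with all 11 control clones and 2489 without the clones of that group. Counts of called list members below stand beside the 3.91% higher and 5.26% lower of all genes.

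**Figure D2:**
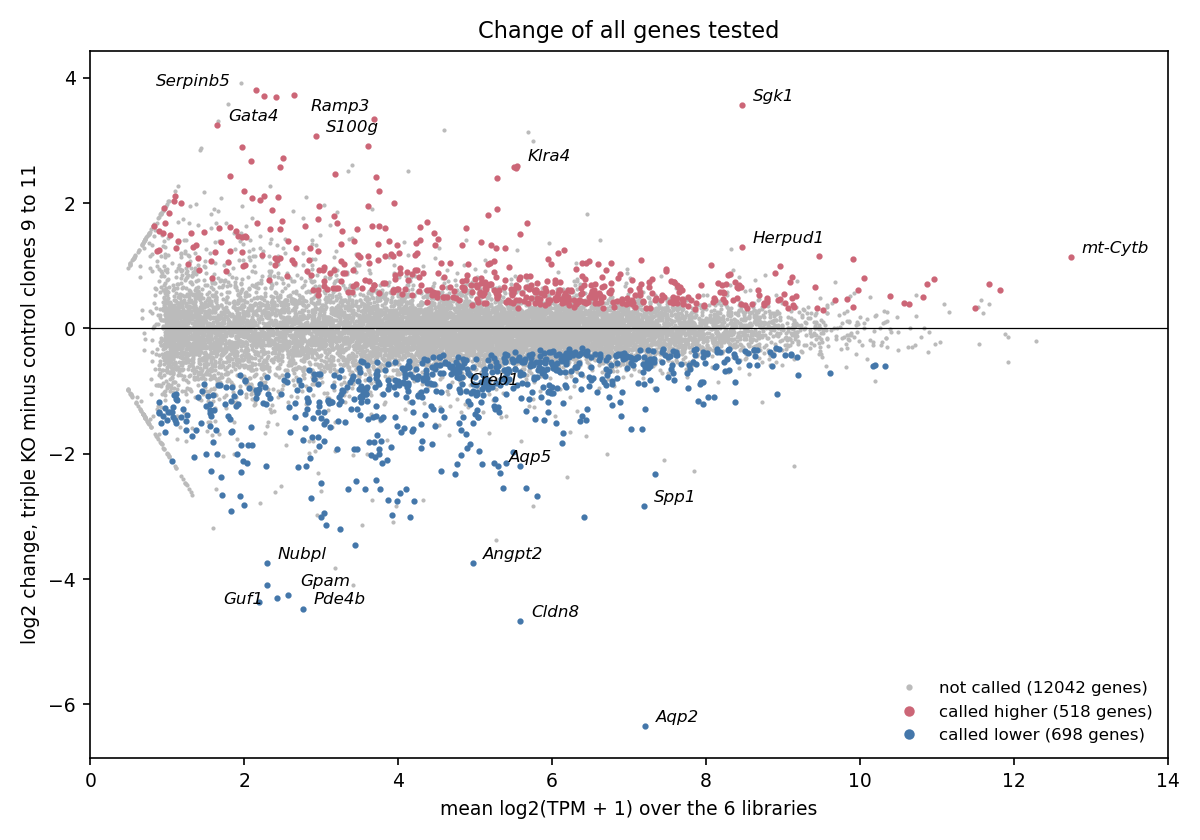
Log2 change in libraries labelled ATF1/CREB1/CREM-KO minus control clones 9 to 11 (vertical axis) against the mean log2(TPM + 1) over the 6 libraries (horizontal axis), 1 point per gene, with 518 genes called higher in red and 698 called lower in blue. Aqp2 (-6.34) lies below every other called gene, and Sgk1 (3.57) is the most abundant gene among the largest increases.

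The 15 largest decreases were taken among called genes with a gene name (clone names such as 3830406C13Rik, which fell by 4.09, were passed over), a minimum level and no overlap between groups, and 11 of them were held in all 6 fits. Pde4b encodes a phosphodiesterase that breaks down cAMP and was at 32.62, 30.12 and 29.95 TPM in control clones 9, 10 and 11 and at 0.69, 0.39 and 0.26 TPM in labelled replicates 1, 2 and 3. It was near the floor in every labelled library and fell by 4.47 on the log2 scale (SE 0.17, adjusted p = 4.13e-04). Guf1, a GTPase of mitochondrial translation, was at 26.68, 21.09 and 21.06 TPM in control clones 9, 10 and 11 and at 0.55, 0.02 and 0.12 TPM in labelled replicates 1, 2 and 3. Gpam, which starts glycerolipid synthesis at the mitochondrial outer membrane, was at 27.08, 24.48 and 23.09 TPM in control clones 9, 10 and 11 and at 0.07, 0.51 and 0.54 TPM in labelled replicates 1, 2 and 3. Nubpl, an assembly factor for respiratory complex I, was at 16.92, 17.39 and 16.37 TPM in control clones 9, 10 and 11 and at 0.69, 0.25 and 0.14 TPM in labelled replicates 1, 2 and 3. For these 3 genes the lowest control clone was 38.3, 42.8 and 23.7 times the highest labelled library, with log2 changes of -4.30 ± 0.22, adjusted p = 4.13e-04 for Guf1, -4.25 ± 0.20, adjusted p = 4.13e-04 for Gpam and -3.74 ± 0.20, adjusted p = 4.55e-04 for Nubpl.

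Angpt2, a ligand of the Tie2 receptor, was at 118.17, 104.47 and 118.36 TPM in control clones 9, 10 and 11 and at 13.24, 5.14 and 6.22 TPM in labelled replicates 1, 2 and 3. The lowest control clone was 7.89 times the highest labelled library, with a change of -3.74 ± 0.30, adjusted p = 0.00172. Tgfb3, a transforming growth factor ligand, was at 24.08, 18.2 and 22.99 TPM in control clones 9, 10 and 11 and at 3.26, 1.22 and 1.35 TPM in labelled replicates 1, 2 and 3. Tspan15, a tetraspanin that partners the protease ADAM10, was at 33.29, 32.1 and 39.16 TPM in control clones 9, 10 and 11 and at 3.57, 1.59 and 1.96 TPM in labelled replicates 1, 2 and 3. Replicate 1 was the highest of the 3 labelled libraries for all 3 genes, and none overlapped the control clones (Tgfb3 -3.01 ± 0.28, adjusted p = 0.00292, Tspan15 -3.45 ± 0.23, adjusted p = 8.60e-04). Rmdn3, a protein that tethers mitochondria to the endoplasmic reticulum, fell by 3.01 from control levels of 47.18 to 51.32 TPM, Atxn7l1 fell by 3.20 and Tspyl4 fell by 3.14, and all genes of this paragraph so far were held in all 6 fits. Ackr3, a scavenger receptor for chemokines, was at 22.49, 22.44 and 20.07 TPM against 4.56, 1.07 and 1.22 TPM and lost its call only without control clone 9 (leave-one-out p 0.0543).

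Cldn8, a claudin of collecting duct tight junctions, was at 250.67, 304.31 and 185.21 TPM in control clones 9, 10 and 11 and at 1.1, 16.1 and 23.18 TPM in labelled replicates 1, 2 and 3. All labelled libraries were far below the control clones, but replicate 1 was far below the other two, and the median of its chromosome, 16, was lower by 0.76 in that library alone. The change was -4.67 ± 0.87, adjusted p = 0.0245, and the call was lost without control clone 9, 10 or 11 or replicate 2 (leave-one-out p 0.101). Depp1 at 280.86, 163.53 and 304.33 TPM against 11.87, 40.98 and 48.78 TPM and Ggt1, a gamma-glutamyltransferase of glutathione breakdown, at 34.47, 75.18 and 26.6 TPM against 1.78, 6.42 and 6.59 TPM also had replicate 1 as the lowest library. Their changes of -3.01 and -2.97 were lost without the same 4 libraries (leave-one-out p 0.0950 and 0.0792).

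The promoters of the genes that fell were then read for the cAMP response element. RefSeq windows from 250 bases before to 50 after an annotated start were matched by symbol for 9522 of the 13258 genes. Upstream stretches of Aqp2 and of the 5 genes with the largest decreases that have TGACGTCA in a window are shown 5′ to 3′ (GRCm38.p6, all on the plus strand), because they show where the element lies in these genes, which were picked for having it (Aqp2 aside). Capitals mark TGACGTCA, or CGTCA in Aqp2, and further short forms are left in lower case. They are chr15:99578825-99578944 for Aqp2, chr14:12284083-12284202 for 3830406C13Rik, chr12:52097626-52097745 for Nubpl, chr10:34297301-34297420 for Tspyl4, chr10:75571440-75571559 for Ggt1 and chr6:91440867-91440986 for 1810044D09Rik.
Aqp2: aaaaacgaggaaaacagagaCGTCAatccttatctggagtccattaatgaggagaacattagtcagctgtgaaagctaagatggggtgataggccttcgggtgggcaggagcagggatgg
3830406C13Rik: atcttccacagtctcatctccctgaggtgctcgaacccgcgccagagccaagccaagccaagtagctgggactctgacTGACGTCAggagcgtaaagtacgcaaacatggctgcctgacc
Nubpl: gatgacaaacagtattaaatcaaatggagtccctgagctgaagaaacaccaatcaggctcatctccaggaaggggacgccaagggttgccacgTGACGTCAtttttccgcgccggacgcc
Tspyl4: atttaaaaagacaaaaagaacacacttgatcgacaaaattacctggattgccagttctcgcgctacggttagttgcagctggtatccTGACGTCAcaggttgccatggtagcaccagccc
Ggt1: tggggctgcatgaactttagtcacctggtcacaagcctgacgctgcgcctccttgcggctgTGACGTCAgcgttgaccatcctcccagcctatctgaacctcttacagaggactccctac
1810044D09Rik: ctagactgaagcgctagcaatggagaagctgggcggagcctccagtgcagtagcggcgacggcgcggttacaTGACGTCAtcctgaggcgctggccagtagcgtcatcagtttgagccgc

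Of the 15 largest decreases, 11 had a window, of which 3 (Nubpl, Tspyl4 and Ggt1) held the palindrome and 7 the short form. Pde4b, Gpam, Tspan15, Atxn7l1, Depp1, Rmdn3 and Ackr3 did not hold the palindrome, and no window was matched for Cldn8, Guf1, Angpt2 and Tgfb3. Of the 15 largest increases, 12 had a window, 0 with the palindrome and 1 with the short form. In Aqp2 the window held the short form CGTCA, with its first base at position -211 from the start, and not the full palindrome. In the other 5 the palindrome began at -42 (3830406C13Rik), -27 (Nubpl), -33 (Tspyl4), -59 (Ggt1) and -48 (1810044D09Rik). The transcript 3830406C13Rik was at 19.31, 16.38 and 22.53 TPM in control clones 9, 10 and 11 and at 0, 0 and 0.68 TPM in labelled replicates 1, 2 and 3 and 1810044D09Rik at 10.05, 7.91 and 8.36 TPM against 0.0, 0.0 and 1.19 TPM, so both were listed at 0 in labelled replicates 1 and 2. The fall of 3830406C13Rik was held in all 6 fits, on chromosome 14, whereas 1810044D09Rik lost its call without control clone 9 (leave-one-out p 0.0501). A further 3 palindrome genes, chosen after their values were seen, were also held in all 6 fits. Abcg2, an efflux transporter, was at 8.93, 10.39 and 7.2 TPM against 0.22, 0.23 and 1.37 TPM. Glod4, a glyoxalase domain protein, was at 131.33, 173.09 and 121.45 TPM against 17.67, 21.38 and 25.02 TPM, and Snapc5, a subunit of the complex that starts small nuclear RNA transcription, at 41.68, 42.96 and 37.66 TPM against 4.94, 6.28 and 7.09 TPM.

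TGACGTCA is a palindrome, so both strands are read at once. The share of genes with it in a window rose with the size of the decrease on log2(TPM + 1). Genes without a matched window were left out. It was 30.2% (13 of the 43 with a window, of 65 genes, 95% Wilson interval 18.6% to 45.1%) among genes that fell by at least 4 times, 16.3% (27 of 166, 11.4% to 22.6%) among those that fell by 2 to 4 times and 7.90% (26 of 329, 5.45% to 11.3%) among those that fell by less. It was 5.25% (20 of 381, 3.42% to 7.97%) among genes that rose and 3.06% (263 of 8603, 2.71% to 3.44%) among genes that were not called, and 3.67% over all 9522. Over the 538 of 698 lowered genes that have a window it was 12.3%, and this ran from 7.43% without labelled replicate 1, when many more genes were called, to 22.0% without control clone 9. Of the 120 genes called lower in all 6 fits, 93 had a window and 22 of these (23.7%) held it. Read the other way, 66 of the 349 genes with the palindrome fell (18.9%), against 472 of the 9173 without it (5.15%). The intervals cover the number of genes only, since genes of one library are not independent. The size classes depend on the pseudocount. Among genes that fell by at least 4 times the share was 18.6% at a pseudocount of 0.1 and 27.3% at 5. Shares of the smaller decreases at those settings are not given here, so the steps are shown for a pseudocount of 1 only.

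The short form TGACG or CGTCA, which includes the palindrome, was in a window of 56.3% of the genes that fell, 32.8% of those that rose and 35.1% of those not called. TCACGTGA, a palindrome of the same base composition, was searched after the other motifs: 0.929% of the genes that fell held it, 2.36% of those that rose and 2.41% of the rest. The AP-1 element TGACTCA or TGAGTCA was in 5.76%, 4.72% and 4.45% of these classes. The palindrome lay nearer the start in genes that fell, with a median position of -27 and 84.5% of matches in the last 100 bases before the start, than in genes not called (-51 and 68.0%). Genes that fell had 1.32 windows each, those that fell by at least 4 times 1.53, and genes not called 1.28. Among genes with exactly 1 window, a comparison added after seeing the data, the shares with TGACGTCA were 34.5% (10 of 29), 18.1% (23 of 127) and 6.51% (17 of 261) from the largest to the smallest decreases, 5.23% (16 of 306) in genes that rose and 2.87% (197 of 6861) in genes not called. Among all 32851 windows in the table, 1.79% held the palindrome and 20.8% the short form. A match is a description of letters and not of a bound site. The shares of TCACGTGA are those of a single other sequence and were not shown to be a background rate.

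**Figure D3:**
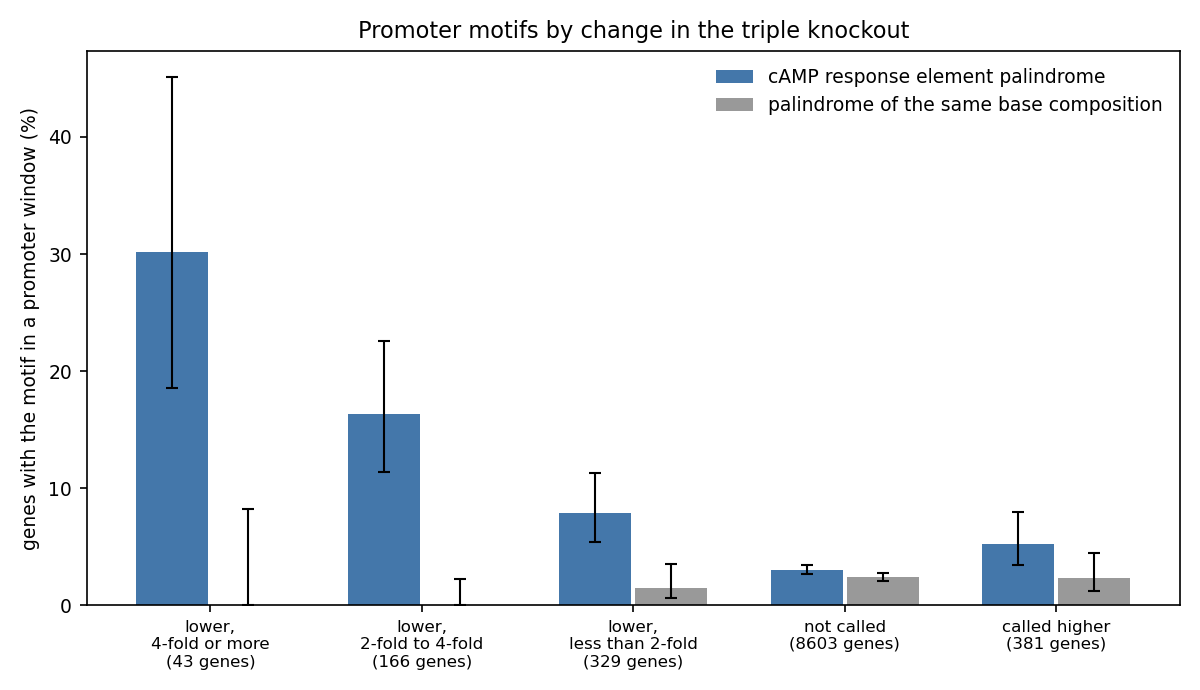
Percentage of genes (vertical axis) with the cAMP response element palindrome (blue) or a palindrome of the same base composition (grey) in a promoter window, by class of change (horizontal axis), with 95% Wilson intervals as bars. The blue share steps from 30.2% to 16.3% and 7.90% as decreases get smaller and is 3.06% in genes not called, while the grey share is at most 2.41%.

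Of the 10 aquaporin genes, 4 were tested, and 3 of them fell. Beside Aqp2, Aqp5 was at 84.76, 80.09 and 84.49 TPM in control clones 9, 10 and 11 and at 32.21, 13.21 and 12.27 TPM in labelled replicates 1, 2 and 3, with replicate 1 the highest of the labelled libraries and no overlap. Aqp6 was at 11.17, 20.78 and 9.28 TPM in control clones 9, 10 and 11 and at 0.67, 3.22 and 2.89 TPM in labelled replicates 1, 2 and 3, with replicate 1 the lowest. The changes were -2.19 ± 0.34, adjusted p = 0.0144 for Aqp5 and -2.21 ± 0.44, adjusted p = 0.0288 for Aqp6, and both calls were lost without any control clone or replicate 2, and that of Aqp6 also without replicate 3 (leave-one-out p 0.0737 and 0.101). These 3 genes lie on chromosome 15, whose median was -0.30, -0.04 and -0.02 in labelled replicates 1, 2 and 3. The remaining tested member, Aqp3, the basolateral water channel, was named after its values were seen: it was at 5.86, 2.16 and 5.91 TPM against 12.33, 6.18 and 6.67 TPM, higher in every labelled library but not past the test (0.76 ± 0.38, adjusted p = 0.251).

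Upstream of the factors, the vasopressin and cAMP genes changed little. Of 19 tested genes of this list, 0 were called higher and 2 lower, with a median change of -0.06 beside -0.05 for all genes. Avpr2, the V2 receptor, named after its values were seen, was at 196.63, 153.87 and 216.89 TPM in control clones 9, 10 and 11 and at 151.74, 140.88 and 140.25 TPM in labelled replicates 1, 2 and 3, lower in each labelled library but not past the test (-0.37 ± 0.13, adjusted p = 0.132). Gnas, which encodes the stimulatory G protein subunit, was at 997.52, 1119.74 and 991.13 TPM against 1064.11, 1220.97 and 1156.39 TPM with overlapping groups. Prkacb, a catalytic subunit of protein kinase A, fell by 0.71 and Rapgef3, the cAMP-activated exchange factor Epac1, by 0.61, each with calls lost without control clone 9 (leave-one-out p 0.0791 and 0.123). Of 9 tested phosphodiesterases, Pde4b and Pde4a fell, the latter from 4.89 to 6.46 TPM in control clones to 1.25 to 2.92 TPM (leave-one-out p 0.155). None of 8 CREB coactivator genes was called. Of the 16 tested genes for CREB, ATF and related leucine zipper factors, Creb1 and Creb3l4 (-0.82, leave-one-out p 0.101) fell and none rose.

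Known CREB targets split. Of 25 tested in a textbook list, 5 fell (20.0%, beside 5.26% of all genes) and 2 rose (8.00%, beside 3.91%), with a median change of -0.34, and 3 of the falls (Pde4b, Nr4a1 and Cebpb) were held in all 6 fits. Nr4a1, an immediate early nuclear receptor, was at 37.37, 43.49 and 39.49 TPM in control clones 9, 10 and 11 and at 13.37, 9.09 and 9.18 TPM in labelled replicates 1, 2 and 3. The lowest control clone was 2.8 times the highest labelled library (-1.85 ± 0.16, adjusted p = 0.00259). Cebpb, a leucine zipper factor, was at 217.71, 247.17 and 246.27 TPM against 133.25, 145.92 and 134.5 TPM and also separated fully (-0.78 ± 0.09, adjusted p = 0.00539), but its call was lost with run as a covariate (adjusted p = 0.0558). Fos fell by 0.87 (leave-one-out p 0.0535, lost without control clone 9 or 11) and Id1, an inhibitor of helix-loop-helix factors, by 0.93 (leave-one-out p 0.0985). In the opposite direction Cited2, a coregulator that binds CBP and p300, rose by 0.45 and Fosl2, an AP-1 subunit, by 0.62 (leave-one-out p 0.157 and 0.150).

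The most abundant of the largest increases was Sgk1, the aldosterone- and glucocorticoid-induced kinase that keeps epithelial sodium channels at the membrane. It was at 95.08, 156.25 and 71.51 TPM in control clones 9, 10 and 11 and at 760.02, 1585.4 and 1524.37 TPM in labelled replicates 1, 2 and 3. The lowest labelled library, replicate 1, was 4.86 times the highest control clone, and the other two were higher still. The change was 3.57 ± 0.37, adjusted p = 0.00418, held in all 6 fits. Nr3c2, the mineralocorticoid receptor, was at 1.83, 1.21 and 0.87 TPM in control clones 9, 10 and 11 and at 5.04, 5.3 and 5.56 TPM in labelled replicates 1, 2 and 3, separate in all libraries (1.47 ± 0.21, adjusted p = 0.0119), with the call lost without control clone 11 or labelled replicate 2 or 3 (leave-one-out p 0.0567). Fxyd2 and Fxyd6, small membrane proteins of the FXYD family, changed by -2.32 and -1.33 (leave-one-out p 0.157 and 0.110). Of 21 sodium transport genes tested, 3 rose (14.3%, beside 3.91% of all genes), Sgk1 and Nr3c2 among them, and 2 fell (9.52%, beside 5.26%), and the median change was 0.18.

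Glucocorticoid-responsive genes did not move together, in a medium that held dexamethasone for all libraries. Of 13 tested, 2 rose and 1 fell, with a median of -0.11. Beside Sgk1, Fkbp5, a chaperone of steroid receptors, was at 231.22, 230.95 and 234.4 TPM against 303.95, 500.24 and 481.37 TPM, an increase of 0.85 (leave-one-out p 0.144). By library, Fkbp5 differed from the control mean by 0.39, 1.10 and 1.05, beside medians of 0.25, 0.17 and 0.17 for its chromosome, 17. Mt2, a metallothionein, fell by 1.28 (leave-one-out p 0.0834).

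**Figure D4:**
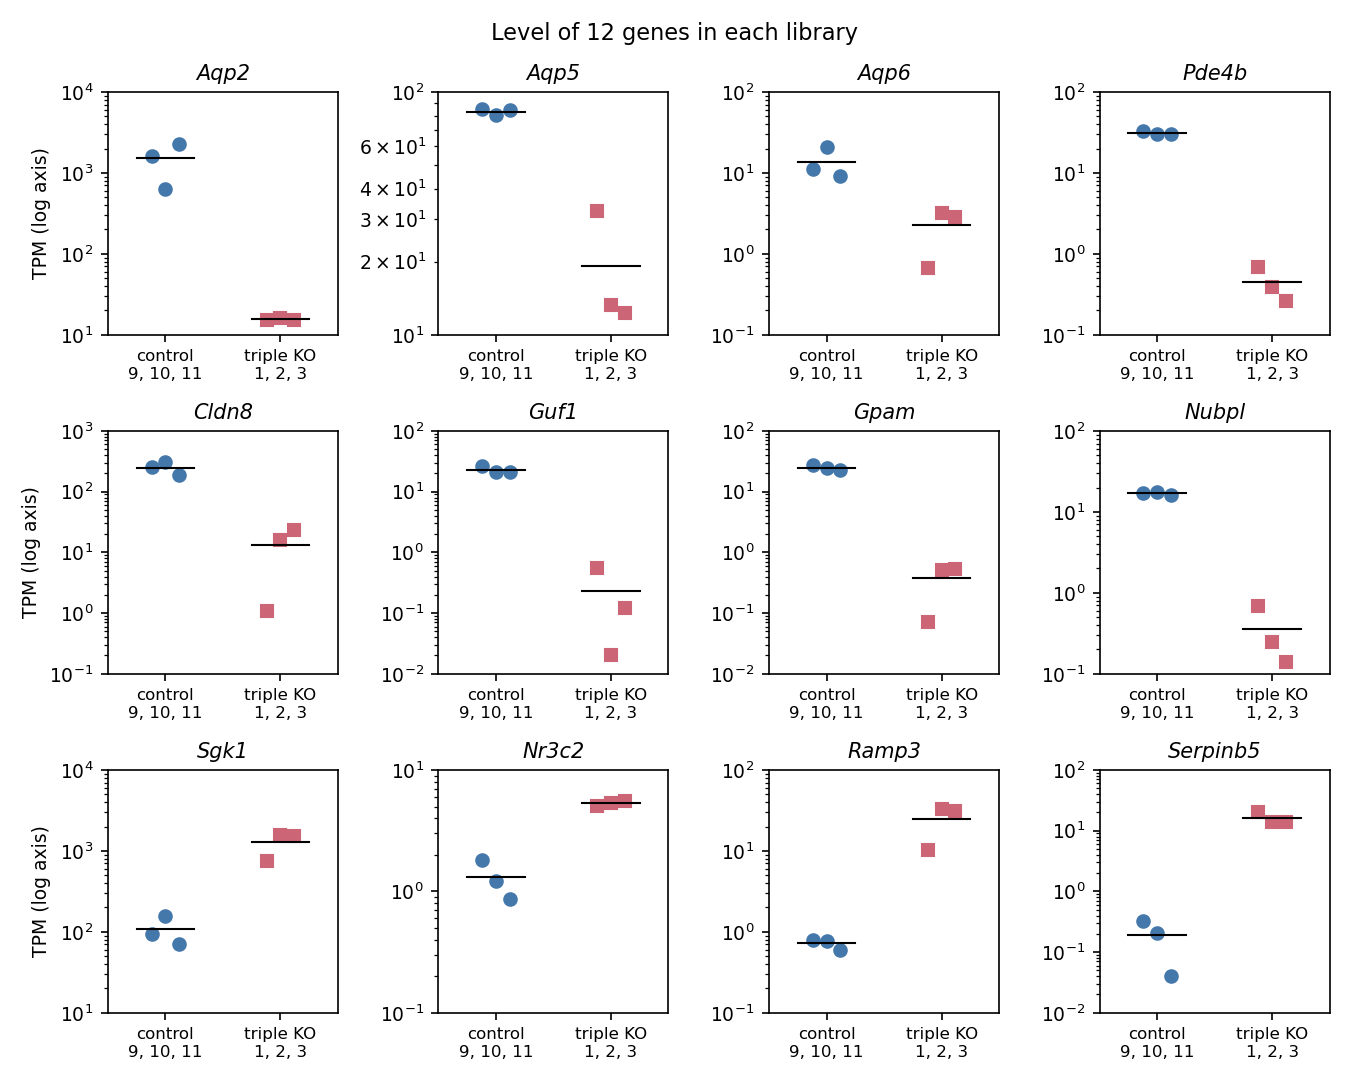
TPM (vertical axes, log scales that differ by panel) of 12 genes in control clones 9, 10 and 11 (blue circles) and in labelled ATF1/CREB1/CREM-KO replicates 1, 2 and 3 (red squares), from left to right, with black lines at group means. In every panel the groups do not overlap; Aqp2 is at 15.1 to 16.05 TPM in the labelled libraries, and Cldn8 and Sgk1 show replicate 1 apart from replicates 2 and 3.

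Genes that were near the floor in the control clones made up much of the other large increases. Serpinb5, the serpin known as maspin, was at 0.33, 0.21 and 0.04 TPM in control clones 9, 10 and 11 and at 20.25, 13.84 and 13.75 TPM in labelled replicates 1, 2 and 3. Ramp3, an accessory protein that sets the ligand of calcitonin-type receptors, was at 0.8, 0.78 and 0.59 TPM in control clones 9, 10 and 11 and at 10.15, 32.69 and 30.89 TPM in labelled replicates 1, 2 and 3. Osbpl6, an oxysterol-binding protein relative, was at 0.44, 0.4 and 0.13 TPM in control clones 9, 10 and 11 and at 8.68, 22.58 and 21.35 TPM in labelled replicates 1, 2 and 3. All 3 were under 1 TPM in the control clones and far above that in every labelled library, with changes of 3.81 ± 0.22, adjusted p = 5.70e-04, 3.73 ± 0.42, adjusted p = 0.00594 and 3.71 ± 0.36, adjusted p = 0.00345, and replicate 1 was the lowest for Ramp3 and Osbpl6 and the highest for Serpinb5. Gata4, a transcription factor gene, was listed at 0, 0 and 0.05 TPM in the control clones and at 8.98, 8.27 and 8.83 TPM in the labelled replicates (3.25 ± 0.18, adjusted p = 5.33e-04), although the median gene of its chromosome, 14, was lower in replicates 2 and 3. S100g, the calcium-binding protein calbindin-D9k, was at 1.62, 1.35 and 1.94 TPM in control clones 9, 10 and 11 and at 14.86, 26.61 and 23.59 TPM in labelled replicates 1, 2 and 3. Tspan13, a tetraspanin whose call was lost against control clones 1 to 5 and 9 to 11 (adjusted p = 0.0804), was at 4.77, 1.7 and 4.62 TPM against 48.43, 26.46 and 26.24 TPM. Both separated fully (S100g 3.07 ± 0.24, adjusted p = 0.00150, Tspan13 2.91 ± 0.37, adjusted p = 0.00815).

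Of the 15 largest increases, 8 were held in all 6 fits: Sgk1, Serpinb5, Ramp3, Osbpl6, Gata4, S100g, Tspan13 and Klra4. Klra4, of a family of natural killer receptor genes, was at 17.13, 20.02 and 16.9 TPM against 131.06, 106.22 and 105.87 TPM (2.60 ± 0.12, adjusted p = 4.13e-04), and its reads could be shared with near-identical family members. The 7 others lost their calls when 1 library was left out. Aldh1a1, a retinoic acid synthesis enzyme, was at 0.22, 0.44 and 0.71 TPM against 3.27, 12.34 and 20.48 TPM, with replicate 1 far below the others (leave-one-out p 0.116). Sult1c2, a sulfotransferase, at 20.42, 13.14 and 20.26 TPM against 44.36, 174.49 and 168.98 TPM, and Epb41l3, a membrane skeleton protein, at 16.83, 34.87 and 9.92 TPM against 79.11, 129.19 and 136.02 TPM, lie on chromosome 17 and differed from the control mean by 1.29, 3.24 and 3.19 and by 2.07, 2.77 and 2.84 in labelled replicates 1, 2 and 3, well above the medians of that chromosome (leave-one-out p 0.109 and 0.0889). Malrd1, the small nucleolar RNA Snora65, Serpinb9b and Pate14 rose by 3.34, 3.69, 2.68 and 2.58, with leave-one-out p of 0.0792, 0.0963, 0.0679 and 0.0925. Serpinb9b and Pate14 also belong to families of similar genes.

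The epithelial genes changed in part. Of 28 tested genes of tight junctions and polarity, 5 fell (17.9%, beside 5.26% of all genes) and 2 rose (7.14%, beside 3.91%), with a median change of -0.12. Cldn6, an embryonic-type claudin, was at 473.8, 652.85 and 407.64 TPM against 217.8, 214.36 and 228.26 TPM, a decrease of 1.18 that lost its call only without control clone 9 (leave-one-out p 0.0594). Cldn3 fell by 0.38 and Cldn12 by 0.40 (leave-one-out p 0.102 and 0.149). Cdh1, the adherens junction protein E-cadherin, was at 849.84, 785.12 and 817.89 TPM in control clones 9, 10 and 11 and at 1202.4, 1255.69 and 1278.39 TPM in labelled replicates 1, 2 and 3. It was higher in every labelled library (0.61 ± 0.07, adjusted p = 0.00689) and was held in all 6 fits, and Pard6b, of the apical polarity complex, rose by 0.40 (leave-one-out p 0.118). The keratins Krt8 and Krt19 fell by 0.60 and 0.71 (leave-one-out p 0.0870 and 0.0706), 2 of 16 tested genes of the keratin and mesenchymal list, in which none rose.

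Of 36 tested genes for matrix, integrins and proteases, 4 fell (11.1%, beside 5.26% of all genes) and 2 rose (5.56%, beside 3.91%). Spp1, the secreted phosphoprotein osteopontin, was at 426.87, 385.24 and 360.54 TPM in control clones 9, 10 and 11 and at 20.03, 74.63 and 100.89 TPM in labelled replicates 1, 2 and 3. The lowest control clone was 3.57 times the highest labelled library, and replicate 1 was the lowest (-2.84 ± 0.54, adjusted p = 0.0270; leave-one-out p 0.110). The integrins Itgb6, Itga1 and Itga2 fell by 1.09, 0.82 and 1.13 (leave-one-out p 0.130, 0.164 and 0.101). Col4a1, a collagen chain of basement membranes, rose by 0.69 (leave-one-out p 0.0628, lost without control clone 9 or replicate 2). Of the 25 tested Wnt and Notch genes, 5 fell (20.0%) and none rose, among them the ligand Wnt9b (-1.39) and the receptor Fzd2 (-1.09) (leave-one-out p 0.0840 and 0.0631). Of 24 EGF receptor and MAP kinase genes, Btc, a ligand of the EGF receptor, fell from 45.39 to 66.17 TPM to 10.24 to 19.45 TPM (lost only without control clone 9, leave-one-out p 0.0543), and Dusp6, a phosphatase of ERK, rose by 0.71 (leave-one-out p 0.0758).

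Mitochondrial genes moved in both directions. Of 7 tested protein-coding genes of the mitochondrial genome, 4 rose and none fell, with a median change of 0.67. mt-Cytb, a subunit of complex III, was at 5026.99, 4340.91 and 4433.69 TPM in control clones 9, 10 and 11 and at 10992.59, 9523.74 and 9994.91 TPM in labelled replicates 1, 2 and 3. The lowest labelled library was 1.89 times the highest control clone (1.14 ± 0.10, adjusted p = 0.00255), and this was held in all 6 fits. mt-Nd2, mt-Nd4 and mt-Nd1, of complex I, rose by 1.16, 0.67 and 0.61 (leave-one-out p 0.0805, 0.139 and 0.131). Of 76 nuclear genes of the respiratory chain, 6 rose and 1 fell, with a median of 0.03. The one that fell, Ndufb2 of complex I, was at 347.52, 372.52 and 342.99 TPM in control clones 9, 10 and 11 and at 159.3, 150.12 and 163.47 TPM in labelled replicates 1, 2 and 3. The groups were clearly apart (-1.16 ± 0.08, adjusted p = 8.60e-04), and the call was held in all 6 fits.

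Other nuclear genes of the organelle fell singly. Mrpl4, a protein of the mitochondrial ribosome, was at 80.95, 97.58 and 86.96 TPM in control clones 9, 10 and 11 and at 23.38, 17.34 and 17.16 TPM in labelled replicates 1, 2 and 3. It fell far below the control clones in each labelled library (-2.15 ± 0.15, adjusted p = 8.60e-04, held in all 6 fits). Of 78 tested genes of that ribosome 3 fell (3.85%) and 1 rose (1.28%), shares below those of all genes, with a median of -0.03. Mrpl55 fell by 1.46 (leave-one-out p 0.0853). Timm44, of the inner membrane import motor, was at 63.4, 63.36 and 58.57 TPM against 31.7, 29.14 and 33.64 TPM (-0.95 ± 0.09, adjusted p = 0.00345, held in all 6 fits). The list medians were thus close to that of all genes, while single members such as Guf1, Nubpl, Mrpl4, Ndufb2 and Timm44 fell by 0.95 to 4.30.

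Cytosolic ribosomal protein genes shifted as a group by a small amount. Of 84 tested, 19 fell (22.6%, beside 5.26% of all genes), none rose, and 75 had a lower mean, with a median change of -0.30. None of the 19 was held in all 6 fits. Rps12, for example, was at 250.7, 217.96 and 262.86 TPM against 176.8, 139.29 and 132.71 TPM (-0.71, leave-one-out p 0.109), and Rpl15, on chromosome 14, changed by -0.62 (leave-one-out p 0.151). Many of these genes have near-identical processed pseudogenes that could share their reads. Transcripts of the mitochondrial genome were higher in the same 3 libraries, by medians of 0.94, 0.47 and 0.64 over 9 genes, and the part of either shift in other changes was not tested.

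Of 20 glycolysis genes, 4 rose (20.0%) and none fell, with a median of 0.29. Aldoa, the aldolase, was at 1421.93, 1587.26 and 1391.2 TPM against 2434.97, 2408.32 and 2363.59 TPM and Pfkp, a phosphofructokinase, at 190.99, 202.88 and 177.51 TPM against 334.18, 285.85 and 313.76 TPM, both higher in every labelled library (changes of 0.71 and 0.70) with calls lost only without control clone 9 (leave-one-out p 0.0501 and 0.0563). A second gene entry named Aldoa, at 6.36, 4.86 and 4.46 TPM against 3.61, 3.84 and 4.15 TPM, was lower and not called (-0.35, adjusted p = 0.261). Of 24 cholesterol synthesis genes, 4 fell (16.7%) and none rose, among them Sc5d by 0.79 and Cyp51 by 0.62 (leave-one-out p 0.0540 and 0.0599). Of 29 genes of fatty acid and glycerolipid synthesis, Gpam and the elongase Elovl6 (89.34, 78.8 and 93.1 TPM against 36.7, 47.85 and 45.15 TPM; lost only without control clone 9, leave-one-out p 0.0543) fell and 1 rose. Of 25 autophagy and lysosome genes, 4 rose (16.0%) and 1 fell (4.00%), with a median of 0.21. Ctsl, a lysosomal protease, was at 68.35, 66.33 and 57.99 TPM against 108.16, 117.56 and 109.9 TPM (0.79 ± 0.09, adjusted p = 0.00665). Its call was held in all 6 fits but lost with run as a covariate (adjusted p = 0.325) and against control clones 1 to 5 and 9 to 11 (0.48, adjusted p = 0.112). Npc1, on chromosome 18, rose by 0.85 (leave-one-out p 0.0897).

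Among stress and survival genes, Herpud1, a protein of endoplasmic reticulum-associated degradation, was at 235.42, 204.59 and 233.75 TPM in control clones 9, 10 and 11 and at 498.34, 613.21 and 558.38 TPM in labelled replicates 1, 2 and 3. The lowest labelled library was 2.12 times the highest control clone (1.30 ± 0.10, adjusted p = 0.00172), held in all 6 fits, and 4 of 29 tested genes of the ATF4 and endoplasmic reticulum stress list rose and 1 fell, with a median of 0.05. Of 16 BCL2 family genes, the killer proteins Bmf, at 17.21, 15.76 and 14.36 TPM against 5.56, 4.1 and 5.14 TPM (-1.50 ± 0.15, adjusted p = 0.00376, held in all 6 fits), and Bik, at 14.96, 10.24 and 17.51 TPM against 0.45, 3.38 and 4.51 TPM (-2.19, leave-one-out p 0.152), fell and 1 rose. Of 28 interferon-response genes, 4 rose (14.3%) and 1 fell (3.57%), with a median of 0.22. Gbp8, Gbp4 and Gbp9, guanylate-binding proteins of similar sequence, rose by 2.00, 1.07 and 0.88, and Ifit1 by 1.34, while Ifi27 fell by 0.69 (leave-one-out p 0.0750, 0.136, 0.0996, 0.128 and 0.104). On chromosome 17, the class I genes H2-T22 and H2-T23 fell by 1.43 and 1.23 against the chromosome's higher median, and the peptide transporter gene Tap2 rose by 0.59 (leave-one-out p 0.0745, 0.0931 and 0.153). Of 33 DNA replication genes, 3 fell, none rose and 30 had a lower mean (median -0.26), and of 30 mitosis genes 2 rose and 1 fell (median -0.08).

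The label of the cells was read against marker genes. Of 26 principal cell markers, 21 were tested, and their summed level was 5038 to 7257 TPM in control clones and 5409 to 5439 TPM in the labelled libraries. Aqp2 and Elf3, an epithelial transcription factor (-0.68, leave-one-out p 0.0806), fell, and Nr3c2 and Cdh16, kidney-specific cadherin (from 1483.12 to 1551.4 TPM to 2025.76 to 2980.28 TPM, leave-one-out p 0.121), rose. The sum mixes opposite changes, with 10 of the 21 higher and 11 lower. Not called but without overlap, Fxyd4 was at 571.96, 319.14 and 694.93 TPM against 304.4, 69.19 and 51.8 TPM. Gata3, Grhl2, Hoxb7 and Avpr2 were also lower without overlap, and Tfcp2l1, Pax8 and Aqp3 higher. Such separation was seen for 34.6% of all tested genes. Hsd11b2 was at 58.34, 72.08 and 61.57 TPM against 558.29, 34.73 and 55.06 TPM. Intercalated cell markers summed to 372 to 669 TPM and 248 to 611 TPM, while Foxi1, the factor that defines those cells, was at 0.05 TPM or listed at 0. Most of this sum was Car2, at 489.97, 199.7 and 566.65 TPM against 167.1, 500.55 and 474.38 TPM. The 7 tested markers all had a lower mean log2(TPM + 1), with a median change of -0.16, and only Aqp6 was called. Rhcg was lower without overlap, at 10.29, 52.84 and 1.87 TPM against 1.03, 0.61 and 0.64 TPM. Fibroblast markers reached at most 2.02 TPM, endothelial markers 0.280 TPM, and immune markers 18.4 to 19.8 TPM in control clones and 6.11 to 51.3 TPM in the labelled libraries, with 5 of 8 listed at 0 in all 6 libraries. Most of the immune sum was Csf1r, a receptor gene on chromosome 18, at 12.24, 11.74 and 14.27 TPM against 3.83, 45.49 and 47.95 TPM, while Cd68 fell (5.93, 7.75 and 4.89 TPM against 1.88, 2.62 and 2.97 TPM). Proximal tubule markers summed to 20.0 to 21.6 TPM and 1.85 to 25.6 TPM, nearly all of it Lrp2, an endocytic receptor, at 21.53, 19.82 and 19.93 TPM against 25.2, 1.1 and 1.66 TPM. Slc12a3, the sodium chloride cotransporter of the distal convoluted tubule, was at 0.04, 0.07 and 0.14 TPM against 4.4, 1.24 and 1.68 TPM (1.56 ± 0.37, adjusted p = 0.0499, leave-one-out p 0.155), at a low level throughout, and lost its call without any 1 of the 6 libraries. In bulk RNA, fewer cells of a type and less RNA per cell cannot be told apart.

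The same genes were then followed under the other knockout labels, each set against control clones with neighbouring library numbers, in 1 limma fit over 22 libraries. The control clones used for ATF1/CREB1-KO differed from the other control clones. Adding them to the others as controls for ATF1/CREB1/CREM-KO moved the median change of chromosome 18 from 0.29 to 0.68. The number of calls went from 2489 to 137. Every ATF1/CREB1-KO change below is measured from those clones, and their part in it was not tested. Of 13295 genes, the change in libraries labelled ATF1/CREB1/CREM-KO differed from that in libraries labelled ATF1/CREB1-KO for 25 (0.188%), 20 of them lower and 5 higher, and from that in libraries labelled ATF1-KO for 475 (3.57%), 336 lower and 139 higher. Without labelled replicate 2 the counts were 11 and 286, and without replicate 3 the second count was 286. The 30 genes with the largest changes were picked for their size in the first group, so their values lean toward larger changes there and their counts are a description.

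Decreases and increases were counted separately in this comparison, and the sets were not tested against each other. Standard errors differed between genes, so the counts of calls do not compare the sets. Of the 15 largest decreases, 10 were deeper than under ATF1/CREB1-KO, where 14 of 15 also had a lower mean and the median was -1.35 beside -3.45. Aqp2 changed by -0.36 under ATF1/CREB1-KO and 0.56 under ATF1-KO, and the difference from its fall of 6.34 was -5.98 ± 0.57 (adjusted p = 9.38e-06) and -6.90 ± 0.51 (adjusted p = 5.17e-08). Pde4b changed by -0.82 and 0.02 in the same order (differences -3.65 ± 0.26 and -4.49 ± 0.24). Gpam and Guf1 were intermediate under ATF1/CREB1-KO, at -1.83 and -1.87, and at 0.04 and -0.08 under ATF1-KO. Nubpl followed the same order, at -1.57 and 0.10. Each of these differed from both other labels. Depp1 passed the test against ATF1/CREB1-KO (0.51 there, difference -3.53 ± 0.70, adjusted p = 0.0389), and Cldn8 passed neither (differences -3.07 ± 1.65 and -2.82 ± 1.48, adjusted p = 0.656 and 0.397).

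Of the 15 largest increases, only Serpinb5 differed from ATF1/CREB1-KO (2.75 ± 0.55, adjusted p = 0.0389), where all 15 had a higher mean and the median was 2.50 beside 3.07. Sgk1 changed by 2.98 there (difference 0.59 ± 1.17, adjusted p = 0.905), S100g by 3.58 (difference -0.51 ± 0.93, adjusted p = 0.896), Ramp3 by 2.87 (difference 0.86 ± 0.93) and Osbpl6 by 2.86 (difference 0.85 ± 0.72). Gata4 changed by 0.98 there (difference 2.28 ± 0.81, adjusted p = 0.412) and Malrd1 by 1.88 (difference 1.46 ± 0.96). These errors are wide, so the lack of a call does not show that the changes were alike. Under ATF1-KO the median of the 15 was -0.09, and 12 differed, with Sgk1 at -1.39 (difference 4.96 ± 1.05, adjusted p = 0.0106) and Osbpl6 at -0.36 (difference 4.07 ± 0.65). Gata4 was higher under ATF1-KO too, at 2.30 (difference 0.95 ± 0.73, adjusted p = 0.615). Among other genes, Herpud1 differed from ATF1-KO (1.26 ± 0.17, adjusted p = 1.65e-04) but not from ATF1/CREB1-KO (0.77 ± 0.19, adjusted p = 0.193), as did mt-Cytb (1.14 ± 0.22 and -0.19 ± 0.25) and Nr4a1 (-2.11 ± 0.33 and -0.90 ± 0.37).

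**Figure D5:**
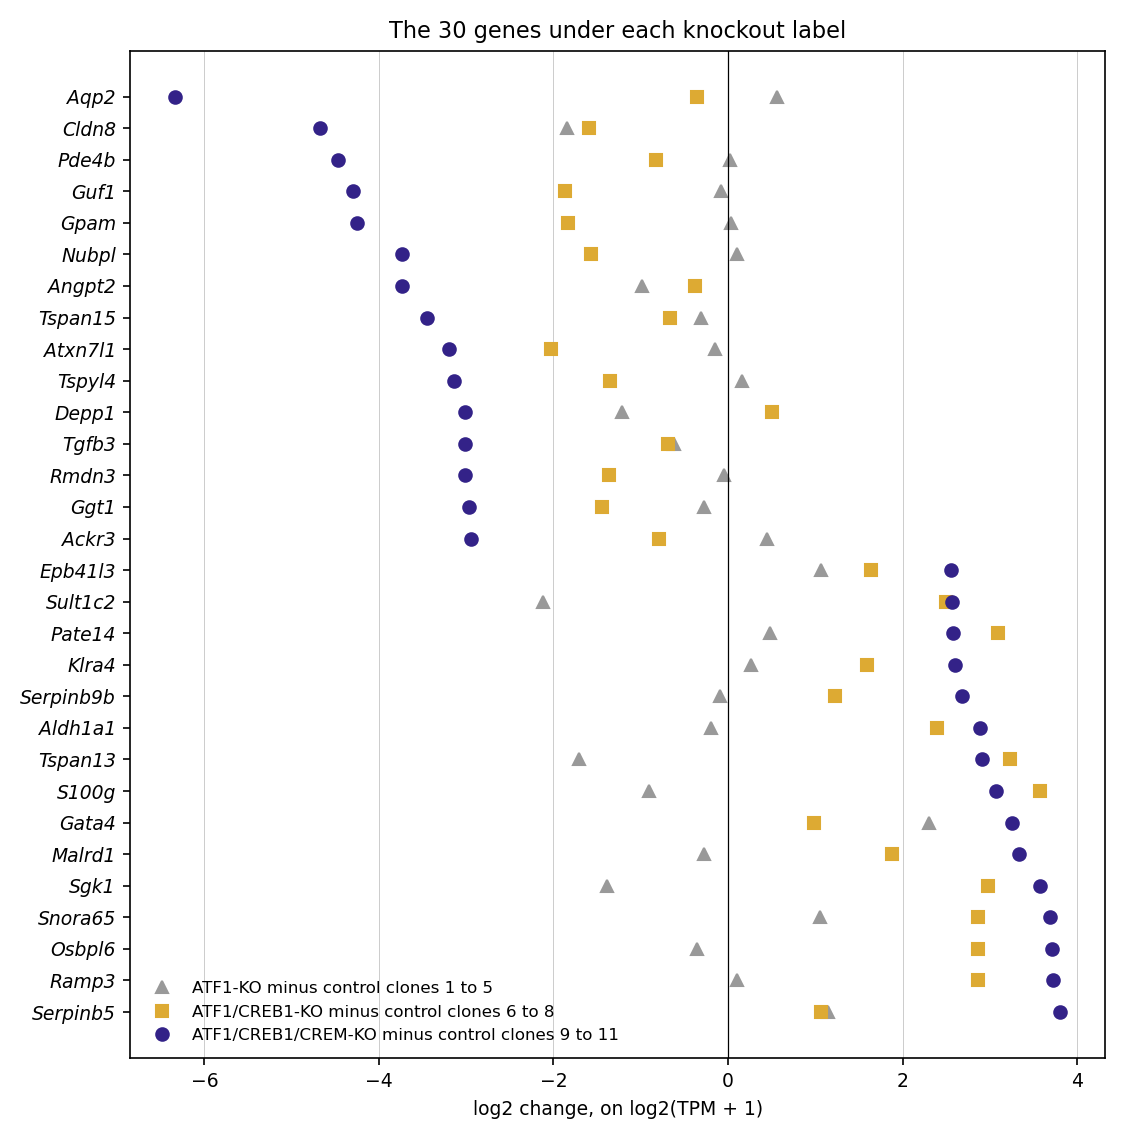
Log2 change (horizontal axis, log2(TPM + 1)) of the 15 largest decreases and 15 largest increases (vertical axis, by gene) under each knockout label minus its own control clones: circles ATF1/CREB1/CREM-KO, squares ATF1/CREB1-KO, triangles ATF1-KO. Among the decreases the squares lie between the triangles and the circles for most genes (medians -3.45, -1.35 and -0.08 for circles, squares and triangles). Among the increases the medians were 3.07 for circles and 2.50 for squares. Squares lie well below circles for Serpinb5 (1.07 and 3.81) and Gata4 (0.98 and 3.25), and above them for S100g (3.58 and 3.07), Tspan13 and Pate14.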

How the data were processed

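The authors deposited 1 table of TPM values per gene and library; STAR and RSEM are named in the submitters' processing notes, and the genome build and annotation are not given in the sources used here. Per the labels' protocols, cDNA from total RNA was amplified with a SMARTer kit and tagmented with Nextera XT; a strand-marking step is not stated, so overlapping antisense genes cannot be told apart. TPM keeps no read depth. Columns were matched to labels by name. Chromosomes came from GENCODE M21. Genes averaging 1 TPM or more over the 6 libraries were tested, after adding 1 and taking log2, with limma 3.58.1 in R 4.3.3 (lmFit, eBayes with trend) and Benjamini-Hochberg adjustment; errors of changes are standard errors, and a gene was called under 0.05. On simulated data for this comparison, 108 of 200 genes changed by 1 log2 unit (12969 genes, 6.9% false calls) and 173 of 200 changed by 2 (12935 genes, 3.35%) were recovered. The simulated noise was independent between genes and libraries, without the chromosome shifts that the real libraries share. These rates therefore need not hold for the real comparison. Named genes were Aqp2, the 3 targets, the 15 largest separated changes in each direction among genes with a name (no Gm, Rik or clone names) with log2 values averaging 3 or more in the higher group, and up to 4 called members in each direction (and the 3 most abundant) of each of 47 gene lists. The comparison, its genes and the lists were chosen with earlier results of these data known. Alternatives covered pseudocounts, filters, scaling, controls and left-out libraries. The 18 rescue samples were not analysed here. Some genes that the rule names are not reported here.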

Additional observations from a re-analysis of the deposited data

How the results depend on the processing

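No paired analysis was possible because the control clones carry numbers 9 to 11 and the labelled libraries 1 to 3. The change of Aqp2 kept its direction and its call under each of the 19 alternatives. With 1 library left out the number of calls ran from 185 to 3317, with 56 to 1454 higher and 129 to 1863 lower. Without a filter on low values there were 710 calls (290 higher, 420 lower), with all 11 control clones 137 (61 and 76), and with control clones 1 to 5 and 9 to 11 2489 (973 and 1516). The share of genes called lower with TGACGTCA ran from 7.43% to 22.0% with 1 library left out, and was 19.6% with all 11 control clones and 9.13% with control clones 1 to 5 and 9 to 11. Among decreases of at least 4 times it was 18.6% at a pseudocount of 0.1. Without chromosomes 14, 16, 17 and 18, an alternative chosen after seeing the data, there were 1042 calls and a share of 12.2%. The number of changes that differed from ATF1/CREB1-KO was 16 at a pseudocount of 0.1 and ran from 11 to 32 with 1 labelled library left out, and the number that differed from ATF1-KO ran from 286 to 680. With all 11 control clones, directions turned for Avpr2 (0.23), Rapgef3 (0.00), Cldn12 (0.30), Itga1 (0.04), Sc5d (0.11), Cyp51 (0.16) and the medians of chromosomes 14 (0.02) and 16 (0.09), and the medians of chromosomes 17 and 18 were 0.41 and 0.68. The median of chromosome 17 was 0.06 without a filter and 0.24 after quantile normalization. Of 100 named calls, 26 were lost with run as a covariate and 9 against control clones 1 to 5 and 9 to 11. The cause of these changes was not tested, except that leaving out a library leaves fewer samples.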
